A study of Arabidopsis thaliana with 18 samples.

Results

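PR1 (AT2G14610), PR2 (AT3G57260) and PR5 (AT1G75040) are the classical marker genes of salicylic acid (SA) defence in Arabidopsis thaliana. They were picked by name, each through the 1 probe set that reports it (266385_at, 251625_at and 259925_at in turn). No rule on their values was used, although earlier results of these data were known. They make up 3 of the 22810 probe sets on the ATH1 array, an Affymetrix chip for Arabidopsis transcripts. The platform's probe table used here listed none of them, so their names come from the selection. RefSeq lists AT3G57260 under the symbol BGL2 with PR2 as a synonym.

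The study hybridised total RNA of the Arabidopsis accession Mt-0 to 18 arrays. All plants received 0.02% silwet, an organosilicone surfactant that spreads a solution over the leaf. It was given alone on 9 arrays and together with 0.30 mM SA on the other 9, so silwet alone is the control and no array of an untreated plant was used here. Serial numbers in the array titles fall into 3 runs of consecutive numbers per treatment, each holding replicates 1, 2 and 3. The runs are called sets 1, 2 and 3 here and were matched between treatments in serial order. A second number in the titles put the sets in the same order under both treatments within each replicate. The labels do not say what distinguishes the sets, whether replicates were separate plants, or which tissue, age or harvest time was used. P-values therefore reflect only how far these arrays scatter, part of which may be technical, and in whole-tissue RNA a change in the number of expressing cells and a change in RNA per cell cannot be told apart.

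In Arabidopsis, SA accumulates when a pathogen is recognised and acts through the coactivator NPR1, which works with TGA transcription factors at the promoters of these genes. The products are secreted proteins. PR1 belongs to the CAP family, PR2 is a beta-1,3-glucanase that cuts a glucan of fungal cell walls, and PR5 is a thaumatin-like protein. In leaves they are used as readouts of systemic acquired resistance, and they also respond to wounding, age and other stresses to differing degrees.

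PR1 and PR5 rose with SA in set 1, by 3.27-fold and 2.77-fold on the log2(signal + 16) scale, and PR2 did not pass the test in any set. The PR5 call lay at the threshold (adjusted p = 0.0497) and held in 4 of 9 other settings and with 4 of 18 arrays left out singly, where its log2 difference ran from 1.04 to 2.23. The PR1 call held in 9 of 9 settings and with 15 of 18 arrays left out, at 1.33 to 2.46. In sets 2 and 3 no gene of the 3 differed between SA and silwet by the test. Under silwet alone, all 3 had their lowest mean in set 1, where replicates 1 and 2 were low and replicate 3 was not. PR1 under SA had mean signals of 3230, 3627 and 3178 in sets 1, 2 and 3.

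The PR1 signal, in linear units scaled by the authors, was 574.5, 563.6 and 2770.1 in silwet replicates 1, 2 and 3 of set 1. With SA in set 1 it was 2814, 2996 and 3879.5. Every SA array of set 1 lay above every silwet array, a separation shared by 12.3% of the 13648 probe sets tested. The gap was narrow, with silwet replicate 3 at 2770.1 next to the lowest SA array at 2814.

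In set 2 the PR1 signal was 2922, 3021 and 4099 with silwet and 4267, 2871 and 3745 with SA. In set 3 it was 1534, 3237 and 4160 with silwet and 2058, 3472 and 4005 with SA. The treatments overlapped in both sets (in set 3, 2.36% of probe sets had every SA array above every silwet array), and every one of these 12 arrays except silwet and SA replicate 1 of set 3 was above the highest silwet array of set 1.

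The PR2 signal was 63.8, 150.3 and 1404 with silwet in set 1 and 359, 192 and 1058 with SA. In set 2 it was 225, 725 and 901 with silwet and 1071, 1070.3 and 1242 with SA. In set 3 it was 1057, 844 and 978 with silwet and 1247, 410.0 and 684 with SA. The highest and the lowest PR2 signals of all 18 arrays were both silwet arrays of set 1. Treatments overlapped in sets 1 and 3, whereas in set 2 each SA array was above each silwet array, as for 8.56% of probe sets tested.

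The PR5 signal was 332, 382 and 1776 with silwet in set 1 and 1763, 1384 and 2098 with SA. In set 2 it was 523, 1088 and 1597 with silwet and 1403, 1256 and 1623 with SA. In set 3 it was 1263, 1086 and 1729 with silwet and 1419, 857 and 1089.9 with SA. PR5 resembled PR1 in set 1, with silwet replicates 1 and 2 far below the rest, but silwet replicate 3 lay above SA replicates 1 and 2, so that the treatments overlapped in every set.

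**Figure D1:**
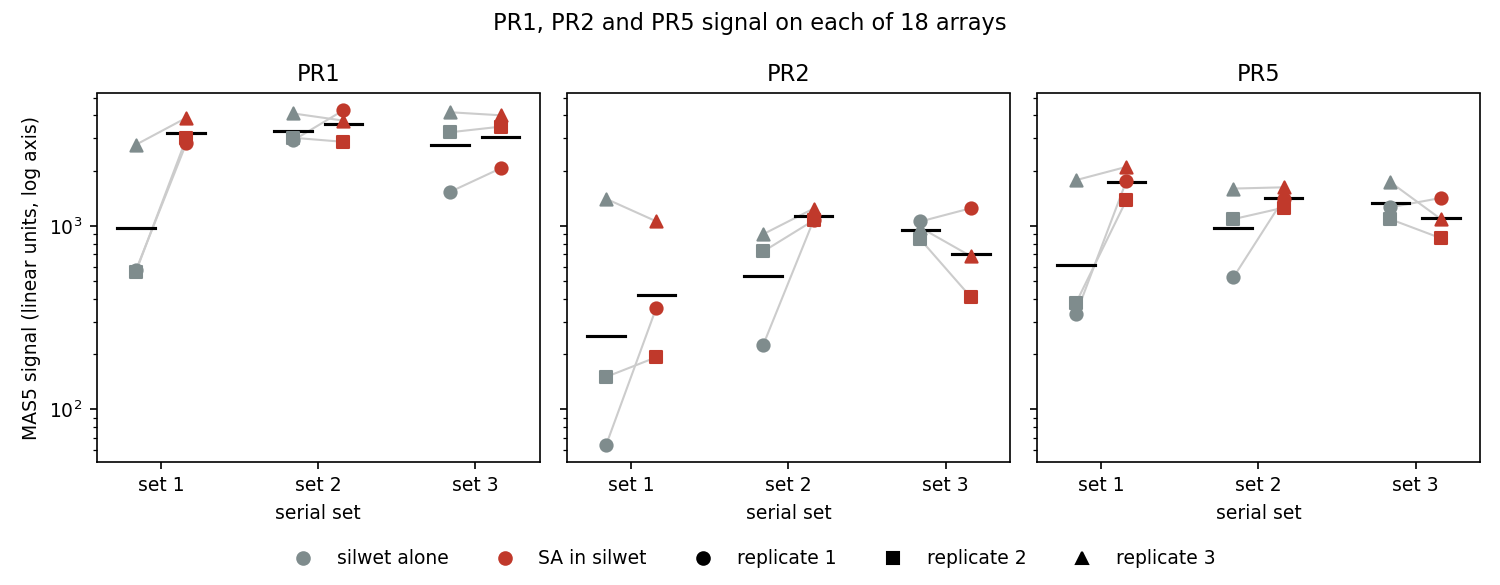
Signal of PR1, PR2 and PR5 on each array (linear MAS5 units on a log axis), with silwet in grey and SA in red, symbols for replicates 1 to 3, grey lines joining same-numbered arrays of a set and black bars at the mean on the log2 scale. Silwet replicates 1 and 2 of set 1 are the lowest PR1 arrays at 574.5 and 563.6, while silwet replicate 3 of that set stands at 2770.1.

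The SA effect was estimated as SA minus silwet on log2(signal + 16), a scale that understates changes at low signal, with 3 arrays against 3 in each set. A single limma model of 6 groups over all 18 arrays supplied the spread, except with the sets pooled. Benjamini-Hochberg adjusted p-values over the 13648 tested probe sets were called below 0.05. In set 1, 6.8% of these probe sets were called higher with SA and 6.04% lower. No probe set was called in set 2, in set 3 or with the sets pooled (percentage called 0), where 233, 187 and 218 probe sets respectively had an unadjusted p below 0.05.

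PR1 was higher with SA in set 1 by 1.71 ± 0.47 (SE; 95% interval 0.72 to 2.70; adjusted p = 0.0239, limma), from a mean signal of 1303 ± 1271 to one of 3230 ± 569.9 (SD, n = 3). It ranked as number 163 by increase among the tested probe sets. The call depended on single arrays: it ended without silwet replicate 1 of set 1 (1.34, adjusted p = 0.113), silwet replicate 2 (1.33, 0.127) or SA replicate 3 (1.57, 0.0921). Without silwet replicate 3 of set 1 the difference was 2.46 with adjusted p = 3.0e-04.

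PR5 was higher with SA in set 1 by 1.47 ± 0.47 (SE; interval 0.47 to 2.47; adjusted p = 0.0497, limma), from 829.8 ± 819.8 to 1748 ± 357 (SD, n = 3). This value lay at the edge of the threshold, and 5 of 9 other settings and the loss of any 1 of 14 arrays moved it past 0.05. Without silwet replicate 3 of set 1 it was 2.23 with adjusted p = 7.25e-04.

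PR2 differed by 0.72 ± 0.79 in set 1 (SE; interval -0.94 to 2.38; adjusted p = 0.610, limma), with means of 539.5 ± 750.3 for silwet and 536 ± 459 for SA (SD, n = 3). The linear means were nearly equal while the log2 means were not, since a single silwet array held most of the linear mean. Without silwet replicate 3 the difference was 1.93 with adjusted p = 0.0480. Without silwet replicate 1 it was -0.15. The interval leaves room for a PR2 rise as large as those of PR1 and PR5.

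In set 2 the differences were 0.11 for PR1 (95% interval -0.88 to 1.10), 1.06 for PR2 (-0.60 to 2.72) and 0.54 for PR5 (-0.46 to 1.54). PR2 ranked as number 5 by increase among all tested probe sets there, with a standard error of 0.79 against a median of 0.22 over the tested probe sets. In set 3 they were 0.16 for PR1 (-0.84 to 1.15), -0.43 for PR2 (-2.09 to 1.23) and -0.28 for PR5 (-1.27 to 0.72). None was called, and the intervals were wide enough to hold a rise of 1 log2 unit for PR1 and PR2 in both sets and for PR5 in set 2.

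With the sets pooled, 9 arrays against 9, PR1 was higher with SA by 0.66 ± 0.35 (SE), PR2 by 0.45 ± 0.52 and PR5 by 0.58 ± 0.30. No gene of the 3 was called, each at adjusted p = 0.9997 (limma), and all 3 intervals included 0. This fit held treatment alone, without the sets, so differences between sets counted as spread. With the 9 pairs as a replicate block the standard errors were 0.26, 0.30 and 0.28 in turn. The 3 genes were still not called there, each at adjusted p = 0.759 (limma).

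Within a set, deviations of same-numbered arrays from their group means correlated between the treatments, unevenly, at 0.129 to 0.770. Each set was therefore also read as 3 pairs, although the labels state no pairing. PR1 in set 1 was higher with SA by 4.90, 5.32 and 1.40 times in pairs 1, 2 and 3, while in sets 2 and 3 the 6 ratios ran from 0.914 to 1.46. PR5 in set 1 was higher by 5.32, 3.62 and 1.18 times. PR2 was higher by 5.62 and 1.28 times in pairs 1 and 2 of set 1 and lower, at 0.753 times, in pair 3.

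For each gene, the ratio in set 1 was smallest in pair 3, whose silwet array was the highest of that group. That array divides the ratio, which favours a small value, and a link to the silwet level was not tested. PR2 and PR5 in set 2 were higher with SA in 3 of 3 pairs, with ratios of 4.77, 1.48 and 1.38 for PR2 and 2.68, 1.15 and 1.02 for PR5. In set 3 PR2 and PR5 were each higher in 1 of 3 pairs, in replicate 1.

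With the 9 pairs as a replicate block, the set 1 rise had a standard error of 0.28 for PR1 (adjusted p = 0.00111) and 0.34 for PR5 (adjusted p = 0.00705, limma). PR2 in set 1 had an adjusted p of 0.229 in that model. The block raised the number of probe sets called in set 1 from 1753 to 3814.

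**Figure D2:**
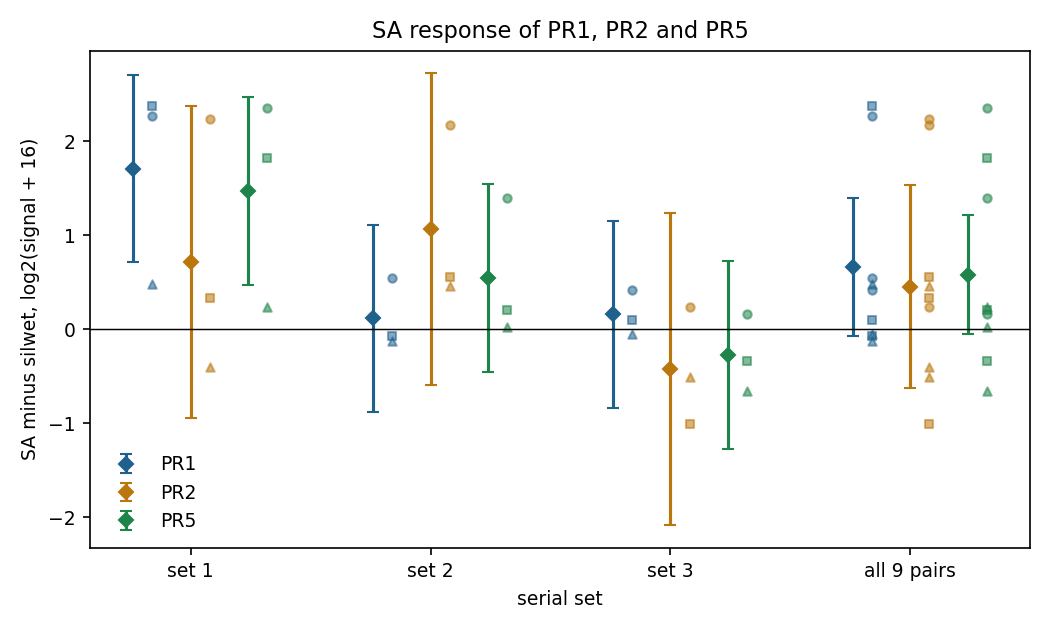
SA minus silwet for PR1, PR2 and PR5 in each set and over all 9 pairs, on log2(signal + 16). Diamonds with bars are limma estimates with 95% intervals, and small symbols are the individual pairs (circle, square and triangle for replicates 1, 2 and 3). Only the intervals of PR1 and PR5 in set 1 lie wholly above 0, at 0.72 to 2.70 and 0.47 to 2.47.

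Whether the SA effect differed between sets was tested directly. The PR1 effect was larger in set 1 than in set 2 by 1.59 ± 0.67 (SE; adjusted p = 0.202, limma) and larger than in set 3 by 1.55 ± 0.67 (adjusted p = 0.204), so neither difference was called. These contrasts called 3.21% and 5.22% of probe sets. With the 9 pairs as a replicate block both passed, at adjusted p = 0.0201 and 0.0194.

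For PR5 the effect in set 1 exceeded that in set 3 by 1.75 ± 0.67 (SE; adjusted p = 0.151, limma) and passed with the pairs as a replicate block (adjusted p = 0.0256). Its excess over set 2, 0.93 ± 0.67, was called in neither model. The PR2 effect did not differ by the test between any sets, with differences of -0.34, 1.15 and 1.49 and standard errors of 1.11. The F test of any difference between sets gave adjusted p = 0.273 for PR1, 0.678 for PR2 and 0.305 for PR5 (limma, 3.52% of probe sets called). For PR1 it was 0.0220 with the pairs as a block.

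Levels were then compared between sets within each treatment. Under silwet, PR1 was higher in set 2 than in set 1 by 1.76 ± 0.47 (SE; 95% interval 0.76 to 2.75; adjusted p = 0.150, limma) and higher in set 3 than in set 1 by 1.49 ± 0.47 (adjusted p = 0.193). Neither was called in this model. With the replicate number as a replicate block both were, at adjusted p = 0.0280 and 0.0475. Both also passed without silwet replicate 3 of set 1 (2.51 and 2.24, adjusted p = 0.00416 and 0.00370). That array was the highest of the lower group, so leaving it out enlarges the difference by construction. The set 3 contrast passed with array weights as well (1.47, adjusted p = 0.0371). In all, the contrasts with sets 2 and 3 passed in 1 and 2 of 8 other settings. Each passed in 1 of 18 removals of an array and in 0 of 3 removals of a replicate number. Probe sets called higher made up 0.0879% and 0.212% of those tested. PR1 ranked as number 8 and number 17 by these increases.

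Under SA, PR1 differed from set 1 by 0.16 in set 2 (95% interval -0.83 to 1.15) and by -0.06 in set 3 (-1.05 to 0.93), with adjusted p = 0.834 and 0.938 (limma). The same contrasts called 27.5% and 31.6% of probe sets. PR5 under SA differed from set 1 by -0.28 and -0.64 and PR2 by 1.38 and 0.72, none called. Under silwet, PR2 was higher in set 3 than in set 1 by 1.87 ± 0.79 (SE; adjusted p = 0.414) and PR5 by 1.10 ± 0.47 (adjusted p = 0.429), also not called.

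For orientation, the same contrasts are given for a pair of genes with larger SA effects in set 1. UGT76B1, a glucosyltransferase that acts on SA and isoleucic acid, had an SA effect of 3.58 ± 0.51 in set 1 (SE; adjusted p = 3.15e-04, limma) and fell under SA by 4.71 from set 1 to set 2 (adjusted p = 8.81e-06). AT3G47540, a chitinase family gene, had an SA effect of 2.78 ± 0.31 in set 1 (adjusted p = 3.44e-05) and fell under SA by 2.63 (adjusted p = 1.54e-05). Under silwet, from set 1 to set 2, UGT76B1 differed by -1.06 and AT3G47540 by 0.28, neither called. Both genes were picked for their SA effects in set 1, and all of these contrasts share the set 1 arrays. A fall under SA from set 1 is therefore favoured by the choice. The gene CHI, picked below for its likeness to the PR genes, differed from set 1 to set 2 by 0.55 under SA and by 1.88 under silwet. From set 1 to set 3 it differed by 0.43 under SA and by 2.19 under silwet, and none of these was called. The difference between UGT76B1 or AT3G47540 and PR1 was not itself tested.

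Ordered by mean log2 signal, PR1 ran from SA set 2 through silwet set 2, SA set 1, SA set 3 and silwet set 3 down to silwet set 1. The first 5 groups lay between 11.81 and 11.43, each within the larger standard deviation of its neighbour. Silwet set 1, at 9.94, was 1.49 below the next group, more than the larger standard deviation of 1.30, although the ranges of the arrays overlapped.

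PR5 ran from SA set 1 through SA set 2, silwet set 3, SA set 3 and silwet set 2 to silwet set 1, from 10.76 to 9.29, with no neighbours apart beyond their spread. PR2 ran from SA set 2 through silwet set 3, SA set 3, silwet set 2 and SA set 1 to silwet set 1, from 10.16 to 8.06. The only PR2 neighbours apart beyond their spread were the first pair, by 0.23 against a standard deviation of 0.16. Both set 1 groups were the lowest for PR2, whereas SA set 1 was the highest group for PR5.

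The 3 genes differed in how far they moved. Across all 18 arrays PR1 spanned 7.57 times, PR5 6.33 times and PR2 22.0 times from the lowest to the highest array. Outside silwet set 1 the spans were 2.78, 4.01 and 6.48 times over 15 arrays. PR1 signals were among the highest on the chip: on the arrays outside silwet set 1 they stood at 35.4% to 96.2% of the highest signal of any probe set on the same array. Whether the scanner or the probes limited PR1 at the upper end was not tested.

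Replicate 3 held the highest PR1, PR2 or PR5 signal in many groups but not in all, as with PR1 in SA set 2 and PR2 and PR5 in SA set 3. Over the 6 groups its excess over the mean of replicates 1 and 2, a contrast chosen after the values were seen, was 0.78 ± 0.23 for PR1 (SE; adjusted p = 0.0565), 1.15 ± 0.42 for PR2 (adjusted p = 0.126) and 0.76 ± 0.24 for PR5 (adjusted p = 0.0741, limma). None was called, where 2.89% of probe sets were called higher.

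As a description, log2 signals of PR1 and PR5 correlated at r = 0.76 across the 18 arrays, PR2 and PR5 at 0.80 and PR1 and PR2 at 0.65. The arrays share treatments, sets and scaling. Without the 3 silwet arrays of set 1 the coefficients over 15 arrays were 0.18, 0.50 and 0.03, so the PR1 correlations rested on those arrays.

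**Figure D3:**
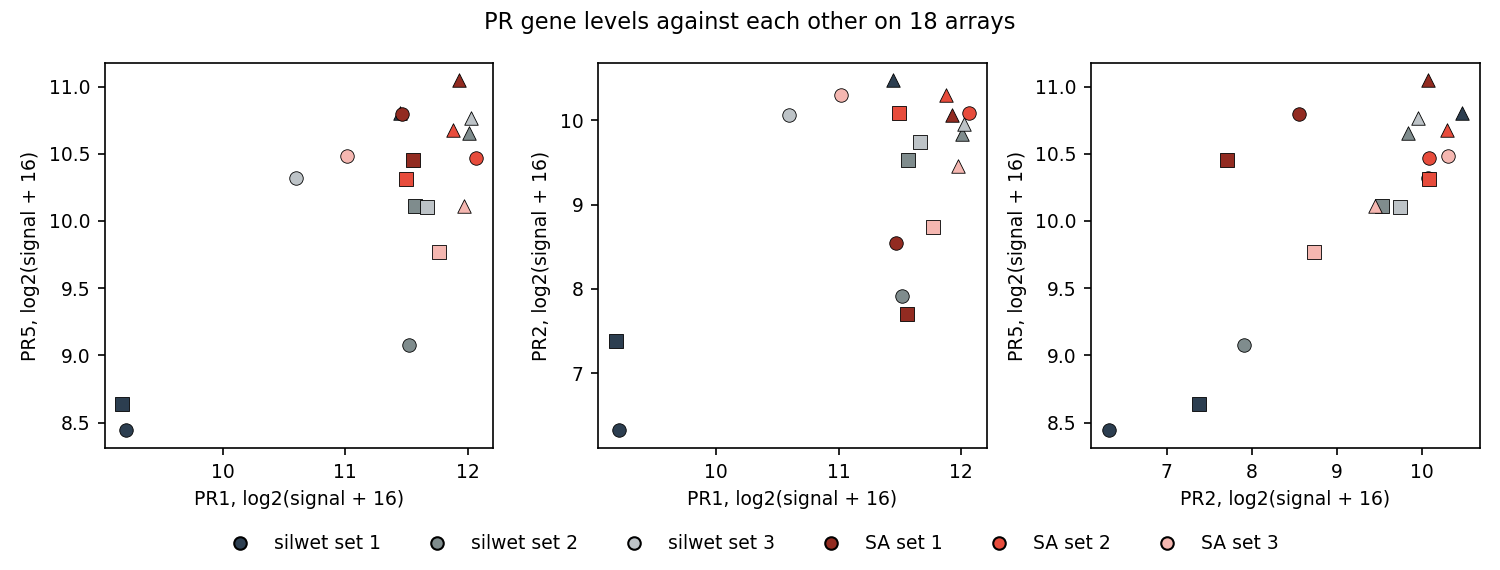
Levels of PR1, PR2 and PR5 against each other on the 18 arrays, each axis in log2(signal + 16), coloured by treatment and set, with circles, squares and triangles for replicates 1, 2 and 3. Silwet replicates 1 and 2 of set 1 sit at the lower left of each panel, and without the silwet arrays of set 1 the PR1 and PR2 coefficient is 0.03 over 15 arrays.

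Among 7326 tested probe sets with exactly 1 named gene, CHI (AT2G43570), a putative chitinase, had the pattern most like each of PR1 and PR2 and the highest mean correlation with all 3 genes, at r = 0.83 with PR1, 0.88 with PR2 and 0.83 with PR5 over 18 arrays. Its mean signal was 246 ± 301.8 with silwet and 492 ± 198 with SA in set 1 (SD, n = 3), and its group means in sets 2 and 3 were 595 to 711. The SA effect of CHI in set 1 was 1.72 ± 0.68 (SE; adjusted p = 0.107, limma), which among the other settings passed only with a replicate block (0.0278 with the replicate number, 0.0110 with the 9 pairs). With 1 array left out it ran from 0.71 to 2.75, and it passed when silwet replicate 3 of set 1 was left out (2.75, adjusted p = 0.00326) or replicate 3 of every group. Its lowest mean was under silwet in set 1, as for PR1, which its selection by correlation over these same arrays favours.

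The next genes by likeness were PRXIIF, a mitochondrial peroxiredoxin (r = 0.82), and AT2G15220 (0.79) for PR1. For PR2 they were APS4, an ATP sulfurylase (0.86), and AT3G56050 (0.83). For PR5, cwINV6, named for cell wall invertase, led with 0.83, ahead of CHI, and RING1, a RING-type E3 ubiquitin ligase, followed at 0.82. Of these, cwINV6 rose with SA in set 1 by 1.61 ± 0.31 (SE; adjusted p = 0.00324, limma). As it was picked by correlation over the same arrays, its rise adds no separate support. By mean correlation with all 3 genes, CHI was followed by AT1G26390 (0.72), APS4 (0.71), AT5G12890 (0.68) and AT2G44240 (0.68).

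Family relatives were taken from lists of loci, of which only those that the probe table names with exactly 1 gene could be used. Of 21 loci related to PR1, 19 were named but only 2 had signal enough to be tested. Neither was called in set 1: AT5G66590 differed by -0.31 (adjusted p = 0.408, limma) and AT2G19980 by -0.12 (adjusted p = 0.839). The median over these was -0.21, against -0.11 over all tested probe sets.

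Of 46 beta-1,3-glucanase relatives of PR2, 20 were tested, of which 3 rose and 3 fell with SA in set 1, with a median of -0.27. Over all tested probe sets 6.8% were called higher and 6.04% lower, with a median of -0.11. AT1G66250 went from 34.3 ± 14.4 to 138 ± 45.0 (SD, n = 3), a rise of 1.62 ± 0.24 (SE; adjusted p = 3.58e-04, limma). AT4G34480 rose by 1.07 ± 0.20 (adjusted p = 0.00297) and AT3G04010 by 0.98 ± 0.26 (adjusted p = 0.0216). AT2G05790 fell by 0.91 on the log2 scale (adjusted p = 0.0204), from 488 ± 100.2 to 257 ± 82.1. The calls of AT2G05790 and AT3G04010 were each lost without any 1 of 3 arrays and in 3 of 3 removals of a replicate number. That of AT4G34480 was lost in 1 of 3 such removals. Relatives of PR2 were called in both directions, as were tested probe sets at large, and PR2 itself was not called. Differences between PR2 and these relatives were not tested.

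Of 22 thaumatin-like relatives of PR5, 11 were tested, none rose and 2 fell in set 1, with a median of -0.53 (6.8% higher, 6.04% lower and a median of -0.11 over all tested probe sets). AT1G75800 went from 311 ± 34.9 to 162 ± 28.6 (SD, n = 3), a fall of 0.88 on the log2 scale, written as -0.88 ± 0.22 (SE; adjusted p = 0.0135, limma). AT4G38670 fell by 0.61 (adjusted p = 0.0159). AT4G38660, at -1.01, missed the threshold (adjusted p = 0.0529). It passed with the 9 pairs (0.00176) or the replicate number (0.00392) as a replicate block, with array weights (0.0222), with log2(signal + 1) (0.0402) and without any 1 of 4 arrays. AT1G20030, at -0.55, missed it as well (adjusted p = 0.0760) and passed with the pairs (0.0358) or the replicate number (0.0487) as a block, with array weights (0.0296) and without 1 array. Leaving out any 1 of 3 arrays ended the call of AT4G38670, and 1 array ended that of AT1G75800. The called relatives moved opposite to PR5 in the same arrays, a difference that was not itself tested.

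Other PR families, namely chitinases, hevein-like proteins, defensins and thionins, had 12 of 26 loci tested, of which 3 rose and none fell in set 1, with a median of -0.34 (6.8% higher, 6.04% lower and a median of -0.11 over all tested probe sets). The 3 were all chitinase family genes: AT3G47540 went from 177 ± 79.4 to 1276 ± 319 (SD, n = 3). AT1G02360 rose by 1.84 ± 0.30 (SE; adjusted p = 8.67e-04, limma) and AT4G01700 by 1.31 ± 0.37 (adjusted p = 0.0284), a call lost without any 1 of 3 arrays. PDF1.2 and PDF1.2b, defensins induced by jasmonate and ethylene, differed by -0.56 and -0.65 without a call.

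A list of 44 loci covered SA synthesis, perception and signalling. It also held UGT76B1, which acts on SA itself, so its members need not lie upstream of the PR genes. The loci were chosen with earlier results of these data known. The count is therefore a description and no independent support. The probe table named 6 of these loci, and 4 of the 5 tested rose in set 1, with a median of 1.52 (over all tested probe sets, 6.8% higher and a median of -0.11). They were UGT76B1, GRX480 (2.50 ± 0.42, SE; adjusted p = 0.00107, limma), a glutaredoxin that binds TGA factors, SAG101 (1.12 ± 0.24; adjusted p = 0.00620), a partner of the immune regulator EDS1, and the transcription factor WRKY53 (1.52 ± 0.47; adjusted p = 0.0420). The WRKY53 call was lost with log2(signal + 1) (adjusted p = 0.0614), with every probe set tested (0.0658) and without any 1 of 7 arrays. Of 8 tested genes for secretion and protein folding in the endoplasmic reticulum, through which PR proteins pass, 4 rose and none fell in set 1, with a median of 0.63 (6.8% higher, 6.04% lower and a median of -0.11 over all tested probe sets). This list, too, was chosen with earlier results known. DER1, of the degradation pathway for misfolded proteins, rose by 0.99 ± 0.15 (SE; adjusted p = 4.98e-04) and the chaperone ATERDJ3B by 1.26 ± 0.27 (adjusted p = 0.00536). The calls of ATERDJ3B and SAG101 held with any 1 array left out but were each lost in 2 of 3 removals of a replicate number. AT1G29310 (0.72, adjusted p = 0.0288) lost its call without any 1 of 3 arrays. AT2G34250 (0.60, adjusted p = 0.0418) lost it without any 1 of 10 arrays and with every probe set tested (0.0606). Both of these calls were lost in 3 of 3 removals of a replicate number. No tested gene of any of these lists was called in set 2 or set 3, where no probe set was.

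**Figure D4:**
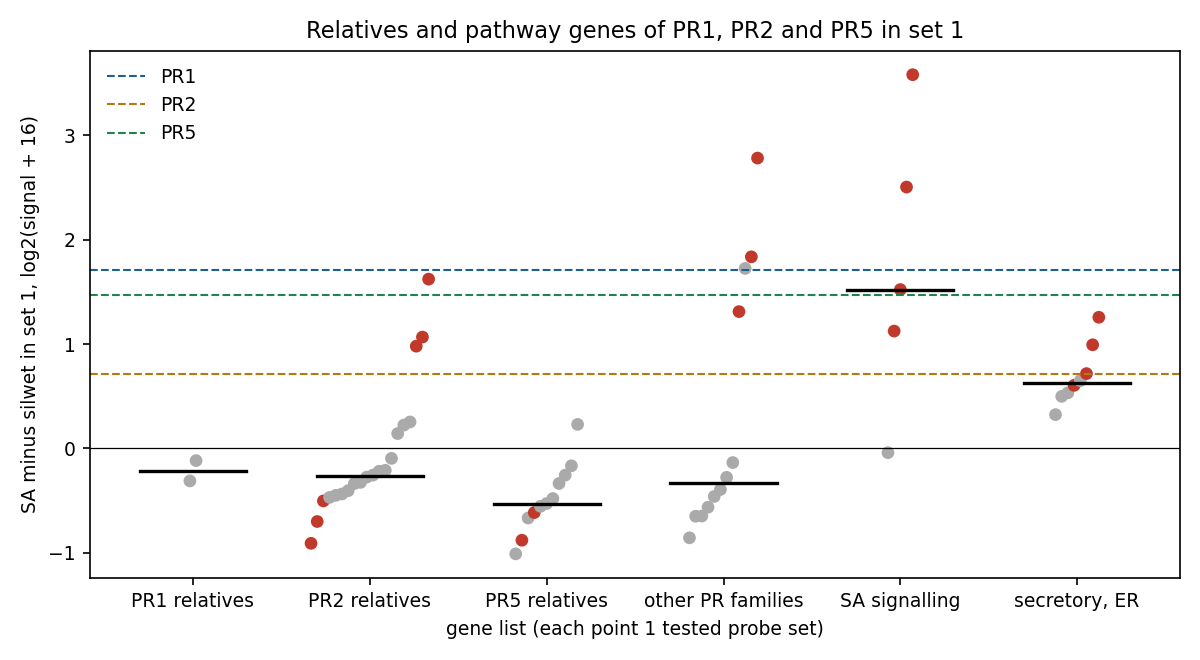
SA minus silwet in set 1, on log2(signal + 16), for each tested probe set of 6 gene lists, red where the adjusted p is below 0.05 and grey otherwise, with black bars at list medians and dashed lines at PR1, PR2 and PR5. None of the 11 tested thaumatin-like relatives reaches PR5, whose difference is 1.47, and both tested PR1 relatives lie below 0.

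Tissue markers and RNA integrity controls were read on every array. Photosynthetic leaf markers were high on every array, where the 3 named ones summed to 4968 to 7454 with SA and 6065 to 9074 with silwet in set 1, none of them called. The 2 root markers summed to at most 240 on any array, the 1 named seed marker did not exceed 5.08, and no flower marker was named, so the tissue can only be described as one with high leaf markers. The ubiquitin control probe sets, which gauge RNA integrity by their 3′ over 5′ signal, had a log2 ratio of 0.70 to 1.10 on the SA arrays of set 1, compared with 1.14 to 1.78 on the silwet arrays of set 1 and 1.22 to 1.67 on the other arrays. It separated the SA arrays of set 1 from all others. The same ratio did not separate them for actin (-0.60 to -0.12 against -0.59 to -0.16 with silwet in set 1) or GAPDH (-0.11 to 0.70 against -0.12 to 0.50). The part of the ubiquitin ratio in the set 1 differences of PR1 and PR5 was not tested.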

How the data were processed

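The deposited values are probe set intensity signals on a linear scale, made with MAS5 (no version given) per the submitters' processing notes. The deposited intensity table had a trimmed mean of 100.01 on every array, so the authors had scaled them. The genome build is not given in the sources used here. Signals were taken as log2(signal + 16) without further normalization. The upper 60% of Arabidopsis probe sets by mean, 13648, were tested with limma 3.58.1 in R 4.3.3 (lmFit, eBayes with trend, two-sided), fitting 6 groups of 3 arrays (12 residual degrees of freedom). The fit was tested on simulated data. All 3 members passed this filter. Pooled comparisons used 9 against 9 arrays in a separate fit of treatment alone, without a term for the sets. Median signals per array ran from 27.5 to 37.3; the number of arrays limits the precision.

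Members and lists were chosen with earlier results of these data known. Up to 4 genes per list with the smallest adjusted p in set 1 were named, and the closest genes by correlation. The defensins were named outside this rule, after their values were seen. Gene names came from the probe table, updated through RefSeq's TAIR10.1 table. Arrays were paired by the replicate numbers in the titles, which do not say that same-numbered arrays were handled together. Deviations of same-numbered arrays from their group means correlated at 0.129 to 0.770 over 9 pairs. Alternatives were pseudocounts of 1 and 64, quantile normalization, centring on the 75th percentile, no filter, array weights, no trend, replicate blocks, and leaving out arrays. Promoter and protein sequences were not used here.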

Additional observations from a re-analysis of the deposited data

How the results depend on the processing

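The PR1 rise in set 1 was called in all 9 other settings (1.53 to 1.95, adjusted p from 0.00111 to 0.0402), and with any 1 array or replicate number left out it ran from 1.33 to 2.46. It also ended without replicate 1 (1.43) and replicate 2 (1.37). The PR5 rise in set 1 was not called with log2(signal + 1) (1.501, adjusted p = 0.0519), log2(signal + 64) (1.38, 0.0515), every probe set tested (1.47, 0.0790), array weights (1.21, 0.0705) or no trend (1.47, 0.0504). Left-out arrays and replicate numbers gave 1.03 to 2.23. It ended without any of the 5 set 1 arrays other than silwet replicate 3 (1.04 to 1.63, adjusted p up to 0.210) and without 9 of the 12 arrays outside set 1, which left 1.47 (adjusted p from 0.0503 to 0.0620).

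With the 9 pairs as a replicate block, the PR1 effect of set 1 differed from set 2 by 1.59 (adjusted p = 0.0201) and from set 3 by 1.55 (0.0194), the F test gave 0.0220, and PR5 differed between sets 1 and 3 by 1.75 (0.0256). With the replicate number as a replicate block, PR1 under silwet rose from set 1 to set 2 by 1.76 (0.0280) and to set 3 by 1.49 (0.0475; 1.47 and 0.0371 with array weights). The blocks changed no other call of PR1, PR2 or PR5. Without silwet replicate 3 of set 1, the PR1 contrasts of set 1 with sets 2 and 3 passed at 2.34 and 2.30, its silwet contrasts at 2.51 and 2.24, those of silwet set 3 with set 1 at 3.08 for PR2 and 1.86 for PR5, and the PR5 effect of set 1 against set 3 at 2.50. Over all left-out arrays and replicate numbers the PR1 contrasts ran from 1.17 to 2.34 and 1.17 to 2.30 and its silwet contrasts from 1.37 to 2.51 and 0.99 to 2.24. The PR2 and PR5 silwet contrasts ran from 0.93 to 3.08 and 0.68 to 1.86, and that PR5 effect from 1.32 to 2.50. The F test ran from 0.0108 to 0.841 for PR1 and 0.0143 to 0.804 for PR5.

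Some differences changed sign, none with a call on the reversed side. For PR1 these were, under quantile normalization, the SA effect in set 3 (-0.027), set 2 minus set 3 of that effect (0.15) and SA set 2 minus set 1 (-0.065), and with array weights SA set 2 minus set 1 (-0.069), SA set 3 minus set 1 (0.035), SA set 3 minus set 2 (0.10) and silwet set 3 minus set 2 (0.025). Leaving out arrays or replicate numbers moved the PR1 effect to between -0.10 and 0.27 in set 2, between -0.26 and 0.45 in set 3 and, for their difference, between -0.34 and 0.37. The SA contrasts of PR1 ran from -0.056 to 0.32, -0.26 to 0.22 and -0.47 to 0.18, and silwet set 3 minus set 2 from -0.57 to 0.15. For PR2 the effect ran from -0.15 to 1.93 in set 1 (the latter called, adjusted p = 0.0480, without silwet replicate 3 of set 1), from -0.10 to 0.75 pooled, and its set 1 minus set 2 difference from -1.21 to 0.86. AT2G19980 ran from -0.32 to 0.055. The cause of these changes was not tested.

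Probe sets called in set 1 numbered 1618 to 3814 over the settings (highest with the 9 pairs as a block), 953 to 2126 with 1 array left out and 421 to 701 with 1 replicate number left out, against 1753. Between-set counts rose to at most 2484 with the block, and those between silwet sets from 78 and 143 to 821 and 1212 with array weights. SA set 2 minus set 1 rose from 3754 to 6141. With 3 arrays a group, 95% intervals of about 1 log2 unit either side for PR1 and PR5 and wider for PR2 set what could be seen.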
